A study of Mus musculus with 4 samples.

Results

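The genes of cholesterol and fatty acid synthesis and of their control by SREBP were followed in MLO-Y4, a mouse cell line used as a model of osteocytes, after 12 h of mechanical loading. They are 36 genes out of 55450 in the count table, each on a single row, and 35 had enough counts to be tested (*Abca1* had not). The members were chosen from the pathway by name, with the difference between these same loaded and unloaded libraries already known. The fold changes and calls below therefore describe the members and are no independent test of them. They comprise 19 enzymes of sterol synthesis, 6 genes of SREBP control and sterol transfer, 6 genes of LXR signalling, efflux and storage, and 5 enzymes of fatty acid synthesis, and they do not include every enzyme of either pathway.

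RNA-seq was performed on 2 unloaded and 2 loaded samples of wild-type MLO-Y4 cells. Loaded cells were stretched at 0.5 Hz and 20% strain on collagen-coated silicone membranes, whereas unloaded cells, also plated to 60% confluency, stayed for the same 12 h in the same incubator on ordinary plates. Loading and culture surface therefore cannot be told apart. Nothing in the labels says whether the replicates came from separate cultures, so the p-values measure only the spread between these libraries. Totals ranged from 28941994 to 32185693 counts, and a floor of 3 counts corresponded to 0.093 to 0.103 CPM (counts per 1000000 counts of the TMM-scaled library), for counting error only. Of the osteocyte and osteoblast markers examined, *Gja1*, *Phex* and *Col1a1* were well covered, *Dmp1* had 12 to 14 counts per library, *Mepe* was at 0, and *Sost* was seen only in loaded replicate 1, with 4 counts. *Bglap* had 0 to 4 counts and *Alpl* 0 to 14, and the 9 markers summed to 1680 to 1721 CPM in unloaded and 1746 to 1779 CPM in loaded cells. Within that sum *Pdpn* differed between the groups, with 143 and 151 CPM in unloaded and 215 and 228 CPM in loaded cells, a fold of 1.51 (edgeR adjusted p = 0.0334, DESeq2 adjusted p = 2.2e-08). The adipocyte markers *Adipoq*, *Cidec* and *Lep* were at 0 in every library, *Plin1* had 4 counts in 1 library, and the sum of the 5 adipocyte markers was 6.96 to 7.85 CPM in unloaded and 7.87 to 9.29 CPM in loaded cells, nearly all of it from *Fabp4*. The 3 hepatocyte markers had at most 2 counts in any library, and the 3 endothelial markers summed to 2.18 to 3.37 CPM in unloaded and 1.24 to 2.39 CPM in loaded cells. Of the 5 macrophage markers, *Tyrobp* was at 0 and *Ptprc* and *Adgre1* reached at most 4 counts, whereas *Csf1r* had 45688 to 50270 counts, with a list sum of 1579 to 1589 CPM in unloaded and 1561 to 1565 CPM in loaded cells. The fifth, *Cd68*, had 162 and 141 counts in unloaded and 99 and 84 counts in loaded libraries, without overlap, a log2 fold change of -0.80 (unadjusted p = 0.0154, edgeR adjusted p = 0.216). The part of these marker levels in the results was not tested. In bulk RNA, fewer cells that use a gene and less of its RNA per cell cannot be told apart.

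Cells make cholesterol from acetyl-CoA through mevalonate, farnesyl diphosphate, squalene and lanosterol. When sterols in the endoplasmic reticulum run low, SCAP escorts the membrane-bound SREBP factors to the Golgi, where they are cut and released to activate the genes of sterol and fatty acid synthesis, and INSIG proteins hold SCAP back when sterols are plentiful. SREBP2 acts mainly on sterol synthesis, and a form of SREBP1 acts mainly on fatty acid synthesis. The nuclear receptors LXR sense oxysterols and turn on the cholesterol exporters ABCA1 and ABCG1 and the ubiquitin ligase MYLIP, which removes lipoprotein receptors.

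Sterol synthesis genes mostly had small positive differences, with both loaded libraries above both unloaded ones in 15 of 19. The exceptions were *Sqle*, which was lower, and *Fdft1*, *Lss* and *Tm7sf2*, in which the groups overlapped. None of the 19 passed an adjusted p under 0.01 in edgeR. In DESeq2, the study's tool, 2 were called higher, beside 1.36% of the genes for which it gave an adjusted p. The log2 fold change of loaded over unloaded cells (the log2 ratio, from edgeR) was positive for 18 of 19 sterol synthesis genes, with a median of 0.20 and a range of -0.19 to 0.71. Among all 16269 tested genes, 48.5% had a positive value and the median was -0.01. In the SREBP control group 4 of 6 values were positive, with a median of 0.04 that turned to -0.023 without unloaded replicate 1 and to -0.082 without loaded replicate 2. In the LXR group 1 of 5 tested genes had a positive value, with a median of -0.09, and the difference between this group and sterol synthesis was not tested. In the fatty acid group 3 of 5 were positive, with a median of 0.12 that was 0.062 without unloaded replicate 2, 0.070 without loaded replicate 2 and 0.042 without *Acaca*, which shares sequence with another gene. By CPM, both loaded libraries lay above both unloaded libraries for 21 of 35 tested members, including 15 sterol synthesis genes, beside 22.1% of all tested genes. Both loaded libraries lay below both unloaded ones for 7 members, beside 24.5% of all tested genes.

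Differential expression was assessed with edgeR's quasi-likelihood test over all tested genes, with Benjamini-Hochberg adjustment and a threshold of an adjusted p under 0.01. The study set this threshold on DESeq2, whose calls are given at the end of this paragraph. By edgeR no member was called. Among all tested genes 0.0123% were called higher and 0.0861% lower. At an edgeR adjusted p under 0.05, *Hsd17b7* was the only member called, beside 0.338% of all tested genes called higher. Without adjustment, 13 members were higher and 4 lower at a p under 0.05, beside 6.88% and 7.46% of all tested genes. The 4 lower ones were *Sqle*, *Srebf1*, *Insig2* and *Mylip*. With the replicate number added to the model (replicate block), 9 members were higher and 3 lower. In that fit 1839 of 16269 tested genes had an unadjusted p under 0.05, in either direction. These unadjusted counts are not given for fits without 1 library, where a group holds a single library. DESeq2 called 3 members higher at an adjusted p under 0.01, *Hsd17b7*, *Fasn* and *Idi1*, beside 1.36% of the genes for which it gave an adjusted p. It called no member lower.

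**Figure D1:**
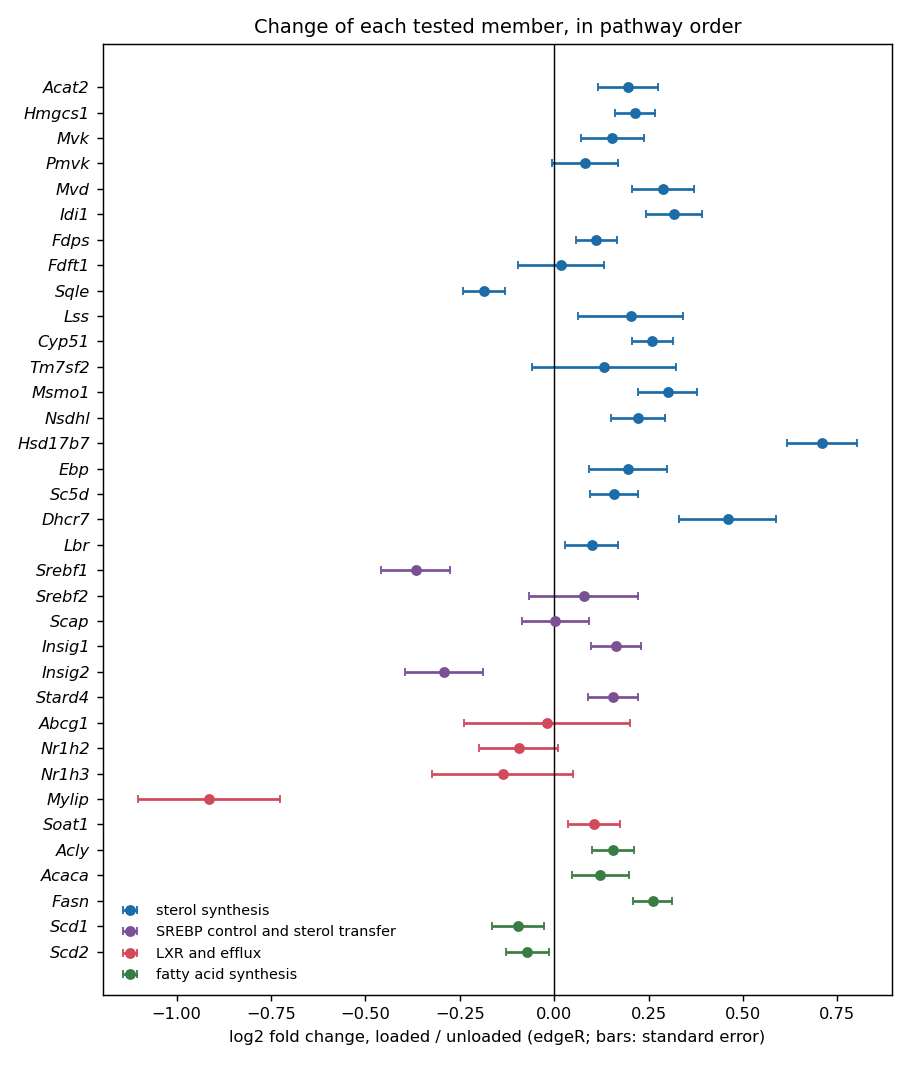
Log2 fold change (loaded over unloaded) of the 35 tested members in pathway order, with edgeR's standard error as bars and 1 colour per group. Points of sterol synthesis lie to the right of 0 except *Sqle* at -0.19, *Hsd17b7* is farthest right at 0.71 and *Mylip* farthest left at -0.91.

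The groups were also compared library by library. The mean log2 CPM of the 19 sterol synthesis genes, relative to the mean of the 4 libraries, was -0.10 and -0.11 in unloaded replicates 1 and 2 and 0.12 and 0.09 in loaded replicates 1 and 2. Without *Hsd17b7* it was -0.09 in both unloaded libraries and 0.10 and 0.07 in the loaded ones. The summed CPM of these 19 genes was 4167 and 4160 in unloaded cells and 4729 and 4701 in loaded cells, 13.2% higher. For the SREBP control group the same mean was -0.00 and 0.05 in unloaded against -0.06 and 0.02 in loaded libraries, so the groups overlapped. For fatty acid synthesis it was -0.02 and -0.05 against -0.00 and 0.08. For the LXR group it was 0.14 and 0.06 against -0.10 and -0.11, but most of this distance came from 1 gene. Without *Mylip* the 4 other tested genes gave 0.03 and 0.01 against -0.03 and -0.00.

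**Figure D2:**
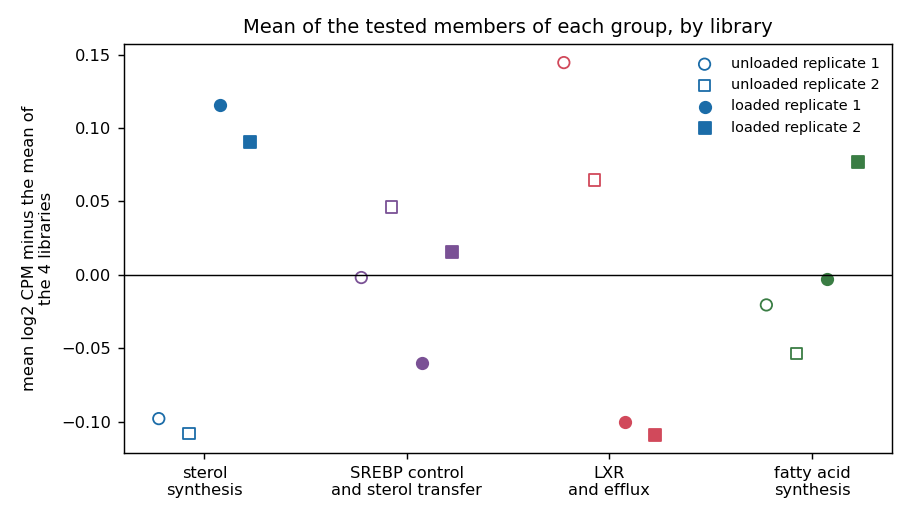
Mean log2 CPM of the tested members of each group in each library (y axis, relative to the mean of the 4 libraries; open symbols unloaded, filled symbols loaded, circles replicate 1, squares replicate 2). Sterol synthesis lies at -0.10 and -0.11 in unloaded and at 0.12 and 0.09 in loaded libraries, and the SREBP control group overlaps.

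RefSeq promoter windows (GRCm38.p6, 250 bases before to 50 after a start site) were available for 29 of the 36 members, in 38 windows, so that a gene with several start sites counts more than once. They were searched on both strands for 4 motifs linked to SREBP-driven promoters: the sterol regulatory element SRE-1 (TCACNCCAC), the E-box (CACGTG), the NF-Y box (CCAAT) and the GC box of Sp1 (GGGCGG). None of these motifs contains another. The windows of *Hsd17b7* (largest positive fold change; chr1:169969156-169969455, minus strand), *Hmgcs1* (the only member window with an SRE-1 match; chr13:119690101-119690400, plus strand), *Insig1* (a sterol-dependent retention factor; chr5:28071162-28071461, plus strand) and *Mylip* (largest negative fold change; chr13:45389492-45389791, plus strand) are shown 5′ to 3′, with every match to the 4 motifs in capitals.
Hsd17b7: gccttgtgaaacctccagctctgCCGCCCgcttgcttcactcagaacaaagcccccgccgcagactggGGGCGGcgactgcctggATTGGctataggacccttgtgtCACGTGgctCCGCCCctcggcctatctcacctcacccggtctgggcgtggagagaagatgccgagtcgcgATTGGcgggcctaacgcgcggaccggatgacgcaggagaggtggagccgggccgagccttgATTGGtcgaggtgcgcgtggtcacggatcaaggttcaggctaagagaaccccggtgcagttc
Hmgcs1: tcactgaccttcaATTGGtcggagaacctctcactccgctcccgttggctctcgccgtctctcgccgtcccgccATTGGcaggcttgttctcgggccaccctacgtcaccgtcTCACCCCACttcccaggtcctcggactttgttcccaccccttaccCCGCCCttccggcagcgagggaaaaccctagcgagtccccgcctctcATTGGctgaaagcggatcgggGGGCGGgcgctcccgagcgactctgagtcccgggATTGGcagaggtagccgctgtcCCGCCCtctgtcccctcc
Insig1: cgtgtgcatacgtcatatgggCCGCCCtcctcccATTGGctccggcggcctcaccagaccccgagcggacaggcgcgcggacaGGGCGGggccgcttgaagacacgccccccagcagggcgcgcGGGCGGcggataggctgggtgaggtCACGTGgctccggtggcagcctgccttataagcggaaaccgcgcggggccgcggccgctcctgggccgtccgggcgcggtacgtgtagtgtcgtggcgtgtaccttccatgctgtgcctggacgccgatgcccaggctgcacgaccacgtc
Mylip: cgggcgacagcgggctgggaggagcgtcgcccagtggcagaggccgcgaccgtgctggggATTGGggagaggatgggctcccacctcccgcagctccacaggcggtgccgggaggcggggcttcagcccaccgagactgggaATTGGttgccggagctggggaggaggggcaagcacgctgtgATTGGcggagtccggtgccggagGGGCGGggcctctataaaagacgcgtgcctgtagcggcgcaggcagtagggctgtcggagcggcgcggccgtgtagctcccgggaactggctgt

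In *Hmgcs1* the SRE-1 match began 137 bases before the start site, among 4 NF-Y boxes and 3 GC boxes. *Hsd17b7* held 1 E-box 143 bases before its start, 3 NF-Y boxes and 3 GC boxes. *Insig1* held 1 E-box, 1 NF-Y box and 3 GC boxes, and *Mylip* held 3 NF-Y boxes and 1 GC box. The 19 sterol synthesis windows were not 1 per gene, since *Sqle*, *Fdft1* and *Fdps* had none and *Dhcr7* and *Pmvk* had several. Some windows lie far inside the gene, and the only *Acaca* window lies 65766 bases past the GENCODE start. In *Dhcr7* only the window 7069 bases past that start held NF-Y boxes, and those near it held none. The *Scap* windows overlap and hold the same E-box. The shares below mix such windows with those at the main start. The NF-Y box was present in 63.2% of the member windows and 78.9% of the 19 sterol synthesis windows, beside 37.4% of all 32851 windows and 38.0% of the windows of tested genes. The GC box was present in 73.7% and 84.2%, beside 35.7% of all windows and 59.8% of those of tested genes. For the E-box the shares were 18.4% and 15.8%, beside 7.15% and 9.74%. The exact SRE-1 letters occurred in 1 of 38 member windows, or 2.63%, beside 1.24% of all windows. These matches are a description of letters in a short window and not of binding. The windows of *Mylip*, lower in loaded cells, and of *Hsd17b7*, higher in them, both held 3 NF-Y boxes. Any relation between motif matches and the direction of change was not tested.

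**Figure D3:**
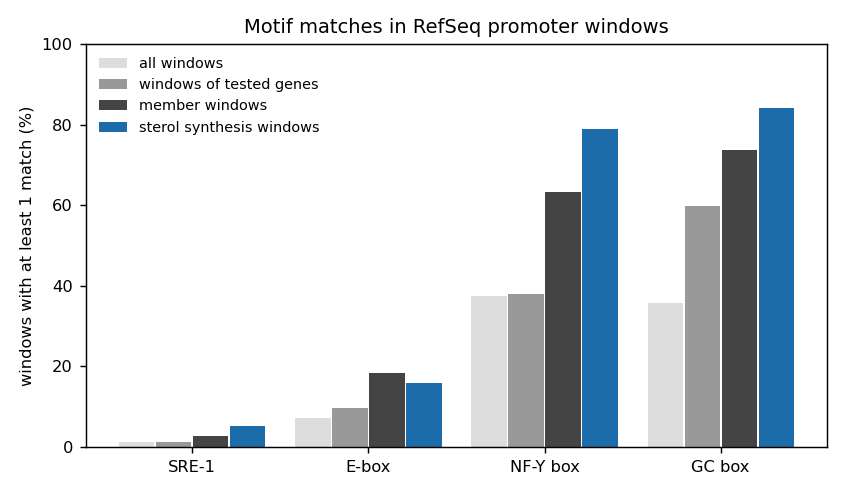
Share of 300-base RefSeq promoter windows with at least 1 match to each motif (y axis, %), for all windows, windows of tested genes, member windows and sterol synthesis windows. The NF-Y box and the GC box are found in 78.9% and 84.2% of sterol synthesis windows, above the other bars, and SRE-1 is rare in every class.

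The 7 enzymes that carry acetyl-CoA to farnesyl diphosphate all had positive values, from 0.08 to 0.32 with a median of 0.20. In all 7 both loaded libraries were above both unloaded ones, beside 22.1% of all tested genes. *Hmgcs1*, which makes HMG-CoA at the entry to the mevalonate route (chromosome 13, 119690379 to 119708260), was at 515 and 511 CPM in unloaded libraries and 589.8 and 600.5 CPM in loaded libraries. The groups differed by more than the replicate spread, with SDs of 3.17 and 7.52 CPM (n = 2 each) and a log2 ratio of 0.21 ± 0.0525 (SE, with edgeR adjusted p = 0.152). *Idi1*, the isomerase that balances the isoprenoid building blocks, stood at 323 and 307 CPM unloaded and at 371 and 413 CPM loaded. Its log2 ratio was 0.32 ± 0.0740 (SE, with edgeR adjusted p = 0.143, DESeq2 adjusted p = 0.00870). *Mvd*, the mevalonate diphosphate decarboxylase, was at 124 and 135 CPM unloaded and 165 and 151 CPM loaded, a log2 ratio of 0.29 (edgeR adjusted p = 0.198).

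Smaller differences were measured at the other steps of this stretch. *Mvk*, mevalonate kinase, had 76.7 and 77.1 CPM unloaded and 83.0 and 88.0 CPM loaded, and *Pmvk*, the next kinase, had 61.0 and 63.2 against 65.6 and 65.8 CPM. *Fdps*, farnesyl diphosphate synthase, had 528 and 517 CPM unloaded and 574 and 555 CPM loaded, a log2 ratio of 0.11 (edgeR adjusted p = 0.421). *Acat2*, the cytosolic thiolase, had 278 and 297 CPM in unloaded and 309.7 and 349 CPM in loaded cells. Its value is uncertain, because 45.9% of the 50-base words of its longest transcript also occur in its near-copy *Acat3*, which had 13 and 28 counts in unloaded cells, 36 in loaded replicate 1 and 2041 in loaded replicate 2. Of its words 13.2% occur in *Tcp1*, on the opposite strand, which had 13635 to 14257 counts, or 133.5% to 170.2% of those of *Acat2*. The sum of *Acat2* and *Acat3* was 278 and 298 CPM unloaded and 311 and 417 CPM loaded. The order of the groups was the same, and loaded replicate 2 stood apart. *Idi1* shared 21.3% of its 50-base words with the processed pseudogene *Gm13502*, whose counts were 8.46% to 11.02% of those of *Idi1*. Exons of *Fdps* overlap *Gm43738* on the same strand over 26.7% of their length (121 to 312 counts per library), and those of *Hmgcs1* lie opposite *Gm48342* over 12.1% (50 to 89 counts). Summed with *Gm13502*, *Idi1* was at 350 and 341 CPM unloaded and 409.5 and 453 CPM loaded.

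The 3 enzymes between farnesyl diphosphate and lanosterol did not follow the same direction. *Sqle*, the squalene epoxidase that performs the first oxygen-requiring step (chromosome 15, 59315077 to 59331192), was the only sterol synthesis gene with a negative value. It was at 451 and 443 CPM in unloaded and 399 and 387 CPM in loaded cells, without overlap, a log2 ratio of -0.19 ± 0.0558 (SE, unadjusted p = 0.0153 and edgeR adjusted p = 0.216). *Fdft1*, squalene synthase, had 209 and 219 CPM unloaded and 242 and 192 CPM loaded. Its loaded libraries lay on either side of the unloaded ones, and 18.3% of its exons lie opposite exons of *Ctsb*, with 10985 to 12523 counts per library. *Lss*, lanosterol synthase, had 258 and 284 CPM unloaded and 357 and 267 CPM loaded, so 1 loaded library lay within the unloaded range, and its difference between loaded replicates, 0.42 in log2 CPM, was the widest of any tested member. The median of the 3 values was 0.02.

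From lanosterol to cholesterol, all 9 values were positive, with a median of 0.22. In 8 of the 9 genes both loaded libraries were above both unloaded ones, beside 22.1% of all tested genes. *Hsd17b7*, the keto-reductase that acts during removal of the methyl groups (chromosome 1, 169949535 to 169969241), had the most positive log2 ratio of the members. It was at 98.5 and 85.2 CPM in unloaded and 148 and 152 CPM in loaded cells, and no 50-base word of its transcript occurred in another gene. The means were 91.9 ± 9.41 and 150.1 ± 2.59 CPM (SD, n = 2 each), a fold of 1.63 and a log2 ratio of 0.71 ± 0.0918 (SE). In edgeR its adjusted p = 0.0374, and DESeq2 gave an adjusted p = 1.46e-08. The edgeR value was 0.0816 with a replicate block and 0.0736 without the filter on low counts. It was 0.0219 without unloaded replicate 1, 0.0597 without unloaded replicate 2, 0.104 without loaded replicate 1 and 0.128 without loaded replicate 2, while the log2 ratio stayed between 0.61 and 0.82. *Dhcr7*, the reductase of the last step in one branch, was at 61.5 and 48.7 CPM unloaded and 76.0 and 75.6 CPM loaded. Its log2 ratio was 0.46 ± 0.129 (SE, with edgeR adjusted p = 0.190), and its unloaded replicates differed by 0.34 in log2 CPM, the widest gap among tested members in that group.

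*Cyp51*, the lanosterol demethylase (chromosome 5, 4081145 to 4104746), had 455 and 450.3 CPM in unloaded and 535 and 549.9 CPM in loaded cells, a log2 ratio of 0.26 ± 0.0540 (SE, with edgeR adjusted p = 0.120, DESeq2 adjusted p = 0.0137). *Msmo1*, the methylsterol monooxygenase, had 201 and 191 CPM unloaded and 228 and 254 CPM loaded. *Nsdhl*, the decarboxylating dehydrogenase, had 165 and 178 against 196 and 205 CPM. *Msmo1* and *Nsdhl* act in turn with *Hsd17b7* on the same methyl groups. The loaded libraries were higher without overlap in all 3, beside 22.1% of all tested genes. *Sc5d*, a sterol desaturase, had 163 and 162 CPM unloaded and 178 and 184 CPM loaded, and *Ebp*, a sterol isomerase, had 31.6 and 35.0 against 39.02 and 37.18 CPM. The sterol reductases *Lbr*, which is also an inner nuclear membrane protein, and *Tm7sf2* catalyse the same reaction. *Lbr* was at 161 and 150.4 CPM unloaded and 165 and 169 CPM loaded, whereas *Tm7sf2* was at 6.714 and 6.501 against 7.84 and 6.64 CPM, with overlap, and 12.1% of its exon length lies in exons of *Vps51*. Per kilobase of exon, the unloaded level of *Lbr* was 32.7 ± 1.62 and that of *Tm7sf2* 1.50 ± 0.0343 CPM per kb (SD, n = 2).

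The genes that control SREBP did not share a direction. *Srebf1*, which encodes SREBP1 (chromosome 11, 60199089 to 60222581), was at 72.5 and 75.6 CPM in unloaded and 59.1 and 55.7 CPM in loaded cells. The groups did not overlap, with a log2 ratio of -0.37 ± 0.0910 (SE, unadjusted p = 0.00664 and edgeR adjusted p = 0.154). *Srebf2*, which encodes SREBP2, had 265 and 325 CPM unloaded and 273 and 349 CPM loaded. Its 2 replicates differed more within each group than the groups differed, and its log2 ratio was 0.08 ± 0.144 (SE). Per kilobase of exon, *Srebf2* was at 41.0 ± 5.91 and *Srebf1* at 13.1 ± 0.395 CPM per kb (SD, n = 2) in unloaded cells. *Scap*, the escort, had 74.4 and 74.5 CPM unloaded and 71.8 and 77.4 CPM loaded, a log2 ratio of 0.00 ± 0.0884 (SE), and 13.2% of its exon length lies opposite another annotated transcript.

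The retention factors had log2 ratios of opposite sign. *Insig1*, itself an SREBP target, was at 228 and 235 CPM in unloaded and 268 and 250.2 CPM in loaded cells, a log2 ratio of 0.16 ± 0.0660 (SE, unadjusted p = 0.0478). *Insig2* was at 55.6 and 55.1 CPM unloaded and 42.6 and 47.9 CPM loaded, a log2 ratio of -0.29 ± 0.102 (SE, unadjusted p = 0.0287). Neither passed the adjustment over all tested genes (edgeR adjusted p = 0.343 and 0.284). *Stard4*, which carries sterol between membranes, was at 231 and 215 CPM unloaded and 248 and 249 CPM loaded. For *Srebf1* and *Insig2* both loaded libraries lay below both unloaded libraries, and for *Insig1* and *Stard4* both lay above. Among all tested genes 24.5% lay below and 22.1% above in this way.

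Of the LXR group, *Mylip* stood apart (chromosome 13, 45389742 to 45412022). It had 419 and 347 counts in unloaded and 234 and 193 counts in loaded libraries, or 14.4 and 11.5 against 7.25 and 6.48 CPM. Its log2 ratio was -0.91 ± 0.188 (SE), the most negative of the members, with an unadjusted p = 0.00268, an edgeR adjusted p = 0.117 and a DESeq2 adjusted p = 0.0306. The exporters had few counts. *Abca1* had 24 and 4 counts in unloaded and 8 and 0 counts in loaded libraries and was not tested, and *Abcg1* had 127 to 144 counts per library, at 4.89 and 4.19 CPM unloaded and 4.46 and 4.50 CPM loaded. Levels of the receptors overlapped or differed little. *Nr1h2*, which encodes LXR-beta, had 40.2 and 45.4 against 39.9 and 40.3 CPM, and *Nr1h3*, which encodes LXR-alpha, had 6.51 and 6.47 against 5.80 and 6.01 CPM. *Soat1*, which esterifies cholesterol for storage, was at 126 and 125 CPM unloaded and 133 and 137 CPM loaded, a log2 ratio of 0.11 ± 0.0679 (SE, with edgeR adjusted p = 0.545).

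Among the fatty acid synthesis genes, the 3 enzymes up to chain building had positive log2 ratios and the 2 desaturases had negative ones. *Fasn*, fatty acid synthase (chromosome 11, 120805846 to 120824547), had 901 and 866 CPM in unloaded and 1069 and 1048 CPM in loaded cells, a log2 ratio of 0.26 ± 0.0517 (SE, with edgeR adjusted p = 0.108, DESeq2 adjusted p = 0.00808). *Acly*, which makes cytosolic acetyl-CoA from citrate, had 633 and 645 CPM unloaded and 692 and 732 CPM loaded, and *Acaca*, acetyl-CoA carboxylase, had 198 and 182 against 199.9 and 214 CPM. For *Acaca* the groups were separated by only the step from 198 to 199.9 CPM, and 52.6% of its 50-base words also occur in the pseudogene *Gm5182*, which had 29 to 39 counts per library. The stearoyl-CoA desaturases were lower without overlap but close. *Scd1* was at 622 and 611 CPM unloaded and 546 and 608 CPM loaded (log2 ratio -0.10 ± 0.0682 SE), and *Scd2* was at 693 and 698 CPM unloaded and 642 and 682 CPM loaded (log2 ratio -0.07 ± 0.0567 SE). Their edgeR adjusted p = 0.585 and 0.629, and the contrast between chain building and desaturation was not tested. The log2 ratio of *Scd1* was -0.017 without loaded replicate 1 and -0.18 without loaded replicate 2, and that of *Scd2* was -0.025 and -0.12.

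Levels per kilobase spanned a wide range in unloaded cells. *Scd2*, *Scd1* and *Fdps* were highest, at 127 ± 0.727, 126 ± 1.50 and 124 ± 1.77 CPM per kb of merged exons (SD, n = 2), and neighbours among these 3 did not differ beyond their replicates. *Acly*, *Acat2*, *Hmgcs1* and *Cyp51* followed at 121, 113, 112 and 103 CPM per kb. Among sterol synthesis enzymes the lowest were *Tm7sf2* at 1.50, *Dhcr7* at 9.48 and *Ebp* at 14.4 CPM per kb, followed by *Hsd17b7*. *Dhcr7* and *Hsd17b7* were also the sterol synthesis genes with the largest positive log2 ratios. *Mylip* (4.002), *Nr1h3* (2.58), *Abcg1* (0.622) and *Abca1* (0.0462 CPM per kb) were at the low end of all members. The order depends on the length used. With the longest protein-coding transcript in place of merged exons, *Fdps* came first at 378 and *Sqle* second at 162 CPM per kb, and 12 of the 36 members moved by more than 3 places, whereas *Abcg1* and *Abca1* stayed last.

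**Figure D4:**
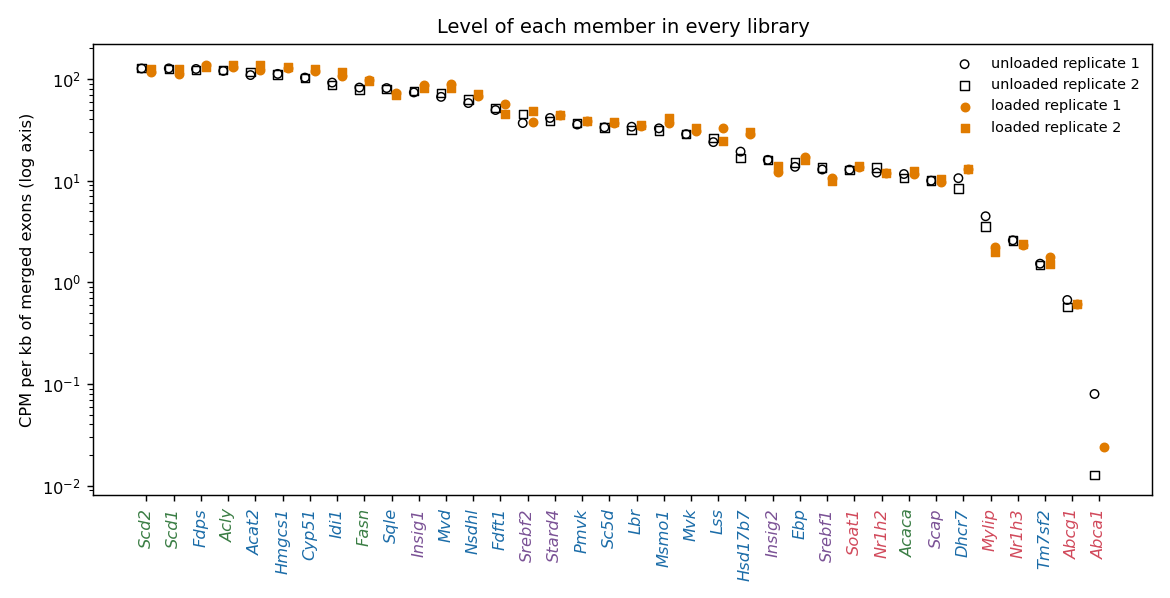
Level of each member in the 4 libraries, in CPM per kb of merged exons on a log axis, ordered by the unloaded mean (open symbols unloaded, filled symbols loaded; names coloured by group as in the plot of fold changes; a value of 0 for *Abca1* in loaded replicate 2 is not drawn). Members range from 127 for *Scd2* to under 0.1 for *Abca1*, and visible separation of the groups is seen for *Hsd17b7* and *Mylip*.

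Of 62 other genes of lipid metabolism listed by role, 54 were tested, 29 with positive and 25 with negative values and a median log2 fold change of 0.02. None was called at an edgeR adjusted p under 0.05 or by DESeq2 at 0.01, and 5 were higher and 2 lower at an unadjusted p under 0.05, beside 6.88% and 7.46% of all tested genes. Among 11 tested genes of sterol uptake and transport, 5 values were positive. *Vldlr*, a lipoprotein receptor, was at 326 and 309 CPM unloaded and 269 and 265 CPM loaded (log2 ratio -0.25 ± 0.0612 SE, with edgeR adjusted p = 0.150). *Nceh1*, a cholesteryl ester hydrolase, was at 20.1 and 19.8 CPM unloaded and 25.7 and 29.3 CPM loaded (log2 ratio 0.46 ± 0.117 SE, with edgeR adjusted p = 0.162).

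Among 8 genes of SREBP cleavage and sterol-regulated degradation, 6 values were negative. *Mbtps1*, the first SREBP protease, was at 127 and 120 CPM unloaded and 111 and 102 CPM loaded (log2 ratio -0.21, with edgeR adjusted p = 0.325), and *Erlin2*, which helps degrade sterol-regulated proteins, was at 131 and 126 against 106 and 122 CPM. Of the 9 isoprenoid branch genes 6 values were positive, with *Nus1*, a subunit of the dolichol-forming prenyltransferase, at 173 and 166 against 191 and 189 CPM and *Pdss2*, a subunit of the enzyme that makes the coenzyme Q tail, at 6.03 and 8.48 against 9.61 and 9.73 CPM. Of the 8 oxysterol and LXR partner genes 4 were tested, and the groups overlapped in all 4. *Lpcat3*, an LXR target that remodels phospholipids, was at 56.9 and 68.6 against 60.3 and 56.3 CPM, and *Rxrb*, a partner receptor, at 27.8 and 32.6 against 33.9 and 30.7 CPM. Of the 22 tested genes of acetyl-CoA supply, elongation, desaturation and acyl transfer, 15 values were positive. *Me1*, the cytosolic malic enzyme that supplies NADPH, was at 196 and 187 CPM unloaded and 223 and 244 CPM loaded (log2 ratio 0.29 ± 0.0736 SE, with edgeR adjusted p = 0.167). *Hsd17b12*, a keto-reductase of fatty acid elongation, was at 105 and 105 CPM unloaded and 206 and 125 CPM loaded, so its difference rested mostly on loaded replicate 1.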

How the data were processed

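Gene expression was measured by RNA-seq of rRNA-depleted RNA in 4 samples of MLO-Y4 cells, grouped as loaded or unloaded by sample title. According to the submitters' processing notes and the study's methods, the authors mapped trimmed reads to mm10 with HISAT2 2.1.0 and assembled transcripts with StringTie 1.3.5. They tested differential expression with DESeq2 1.32.0 at an adjusted p under 0.01. The authors deposited raw counts, which StringTie's companion script derives from coverage as whole numbers. The strand setting and annotation release are not given in the sources used here, so reads of overlapping antisense genes cannot be told apart. All 55450 gene identifiers are found in GENCODE M21 (GRCm38), which supplied coordinates, exon lengths and transcripts.

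Genes were filtered with filterByExpr (count minimum 10), scaled by TMM and tested with the quasi-likelihood test of edgeR 4.0.16 in R 4.3.3. Benjamini-Hochberg adjustment ran over 16269 genes. The standard error is the log2 fold change over the square root of F. DESeq2 1.42.0, RLE factors, other filters, a replicate block, an adjusted p of 0.05 and leaving out each library were alternatives. The further alternatives (members sharing at least 10% of their 50-base words or exons left out, another transcript length, and sums with copies) were chosen after seeing the data. The scripts were tested on simulated data. At an adjusted p under 0.01, edgeR recovered 60% of genes changed by a log2 of 1 and 87% of those changed by 2. Smaller changes, the size of all tested members' values, were not simulated, so the lack of a call does not show a lack of change. The members and lists were chosen with earlier results of these data known. All members are named, with the 2 smallest p per other list. Replicates were not duplicates, with a chi-square per degree of freedom of 17.6 and 19.0.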

Additional observations from a re-analysis of the deposited data

How the results depend on the processing

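No member was called higher or lower at an adjusted p under 0.01 by edgeR's quasi-likelihood test under RLE factors, no filter on low counts, a minimum of 10 counts in every library, the replicate block, or with any library left out (range 0 to 0). DESeq2 called 3 members higher and 0 lower, and an adjusted p under 0.05 called 1 higher and 0 lower. Over all genes DESeq2 called 170 higher and 193 lower, against 2 and 14 by edgeR, which called 4 and 25 with a minimum of 10 counts in every library, 0 and 0 without a filter or with the block, and from 0 and 0 (without either loaded replicate) to 19 and 31 or 18 and 40 (without unloaded replicate 1 or 2). With each library left out in turn, where the lone sample of a group is assumed to vary like the other group, the median log2 fold change of sterol synthesis ranged from 0.16 to 0.24, that of the LXR group from -0.13 to -0.08, that of fatty acid synthesis from 0.062 to 0.17 and that of the SREBP control group from -0.082 to 0.087, so the last had no fixed sign. It was negative without unloaded replicate 1 and without loaded replicate 2. Fatty acid synthesis moved to 0.062 without unloaded replicate 2 and to 0.070 without loaded replicate 2. Without members that share sequence or exons with another gene the median was 0.21 for sterol synthesis and 0.042 for fatty acid synthesis (2 of its 4 remaining values are negative).

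Some single members changed sign when a library was left out, in no case with a call. *Fdft1* ranged from -0.16 (without loaded replicate 1) to 0.17 and was -0.0065 without unloaded replicate 1. *Lss* ranged from -0.021 (without loaded replicate 1) to 0.40. *Srebf2* ranged from -0.11 (without loaded replicate 2) to 0.25 and was -0.055 without unloaded replicate 1. *Scap* ranged from -0.052 (without loaded replicate 2) to 0.058, and *Abcg1* from -0.13 to 0.10 (without unloaded replicate 1). The cause was not tested. The adjusted p of *Hsd17b7* passed 0.05 without the replicate block and was 0.0816 with the replicate block. Same-numbered libraries did not deviate together across all tested genes (r = -0.0846 across 16269 genes). With 2 libraries per group this cannot decide whether same-numbered cultures were prepared together, which the labels do not say. With the block, the medians of the 4 groups kept their signs and no member was called.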
